A study of Mus musculus with 19 samples.

Results

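Pdgfra, Cspg4, Gpr17, Olig1, Olig2 and Sox10 are genes by which the oligodendrocyte lineage is followed from precursor to myelinating cell. These 6 genes were chosen by name from 24130 Ensembl genes listed in any of 7 libraries of mouse neocortex. Pdgfra and Cspg4 mark precursors, Gpr17 marks cells that have left the precursor state, and Olig1, Olig2 and Sox10 are transcription factors of the lineage as a whole.

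RNA was taken from laminar dissections of primary somatosensory cortex of male C57BL/6J mice aged 56 days, with no treatment or engineered allele in any group. The segments ran from A (mostly layers 1 to 3) through B (mostly layer 4), C and D (both mostly layer 5, with C the more superficial) and E (mostly layer 6) to F (mostly layer 6b). Segment B was sequenced in 2 libraries, B1 and B2, each a pool of 4 mice of a litter. Each other segment has 1 set of values, pooled from 8 mice and called 1 library here. By the labels, reads of F came from more than 1 library and were longer in part. Any effect of this on the values of F was not tested. The comparison asks how expression of each stage of the lineage changes with cortical depth.

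Oligodendrocyte precursors are spread through all layers of the adult cortex, where they divide slowly under the control of platelet-derived growth factor. Cells that commit to differentiation lose the receptor for this factor, pass through a short stage marked by GPR17, and then either mature and wrap axons or die. Mature, myelinating cells are known to be denser in deep layers and in the white matter beneath them.

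The libraries held an estimated 31400000 (A) to 75200000 (B2) fragments, the value for F, 55600000, being an upper one because, by the labels, part of its reads were longer. Layer markers followed the labels. Cux2 was highest in A, B1 and B2 (28.6 to 43.5 FPKM, against at most 9.17 in C to F), Rorb was highest in B1 and B2 (17.8 and 22.1 FPKM), Fezf2 in C (26.0 FPKM), Tbr1 in E (73.5 FPKM) and Ccn2, a marker of layer 6b, in F (167 FPKM, against 31.4 in E). FPKM, the fragments of a gene relative to its length and to all mapped fragments, is a share of each library. Mitochondrial genes took from 5.03% of summed FPKM in F to 21.8% in A, with 7.76% in B1 and 18.2% in B2. Scaling each library to the median ratio of all genes gave log2 factors from -0.24 in A to 0.19 in F, so changes with depth are given on both scales where the difference matters.

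Promoter sequence was matched by symbol for 3 of the 6 genes (RefSeq, GRCm38.p6) and is shown for all that were matched, whatever their slope. Each window is on the + strand and ends at the base before the first annotated start in RefSeq or GENCODE M21. Capitals mark CANNTG, the E-box that basic helix-loop-helix factors such as OLIG2 bind, and CCAAT, or its complement ATTGG. The E-box is its own complement, and the other motifs were searched on both strands. No capitals overlap another motif.

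Pdgfra, chr5:75152001-75152250: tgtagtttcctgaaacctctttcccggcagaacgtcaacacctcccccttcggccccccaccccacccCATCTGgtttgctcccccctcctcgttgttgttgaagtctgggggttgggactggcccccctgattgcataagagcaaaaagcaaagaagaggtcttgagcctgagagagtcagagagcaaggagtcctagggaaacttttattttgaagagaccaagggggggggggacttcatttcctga

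Cspg4, chr9:56864854-56865032: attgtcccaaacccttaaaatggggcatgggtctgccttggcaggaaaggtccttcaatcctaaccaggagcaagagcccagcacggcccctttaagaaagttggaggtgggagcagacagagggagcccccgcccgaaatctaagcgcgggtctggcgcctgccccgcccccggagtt

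Olig2, chr16:91225300-91225456: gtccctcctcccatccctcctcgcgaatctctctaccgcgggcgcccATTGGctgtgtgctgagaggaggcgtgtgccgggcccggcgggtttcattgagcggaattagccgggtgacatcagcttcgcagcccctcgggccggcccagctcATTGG

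The Pdgfra window of 250 bases held 1 CANNTG, starting 182 bases before the start, a motif present in 66.2% of all 32851 promoter windows of that length. The Olig2 window of 157 bases held 2 CCAAT matches, both read as ATTGG, at 110 and 5 bases before the start, and 21.0% of windows of that length held at least 1. No match to the 5 motifs searched (these and ACAAAG and AACAAT, both related to SOX factor sites, and TATAAA) was found in the 179 bases of Cspg4. CANNTG was in 55.3% and CCAAT in 24.8% of windows of that length. For the 157 and 179 bases, the windows compared were the first bases of each stored promoter, which begins 250 bases before the RefSeq start. They leave out the bases nearest that start. These shares are therefore not matched to the Olig2 and Cspg4 windows by distance to the first annotated start. These matches describe letters in a window and were not related to the expression values.

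All 6 genes were highest in segment F and all except Cspg4 were lowest in library A. Cspg4 was lowest in library B2, whose interval overlapped that of A. With B as the mean of its libraries, Cspg4 was lowest in A too (10.4% of its summed FPKM, against 12.8% in B). How many of all tested genes were lowest in A was not counted. In the fit over 11409 classifiable genes all 6 rose with depth, and 16.6% of all tested genes did so (1898 genes) while 2.71% (309 genes) fell. With libraries scaled to the median ratio, 587 genes rose and 501 fell over all genes, and the members that rose were the same except Cspg4. The interval of F lay above that of A for all 6 genes, as it did for 60.8% of all tested genes, and above that of E for all 6, as for 28.7% of all tested genes. F was the highest of the 7 libraries for 29.3% of all tested genes. The RNA came from whole tissue, so more cells of the lineage and more RNA per cell cannot be told apart.

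**Figure D1:**
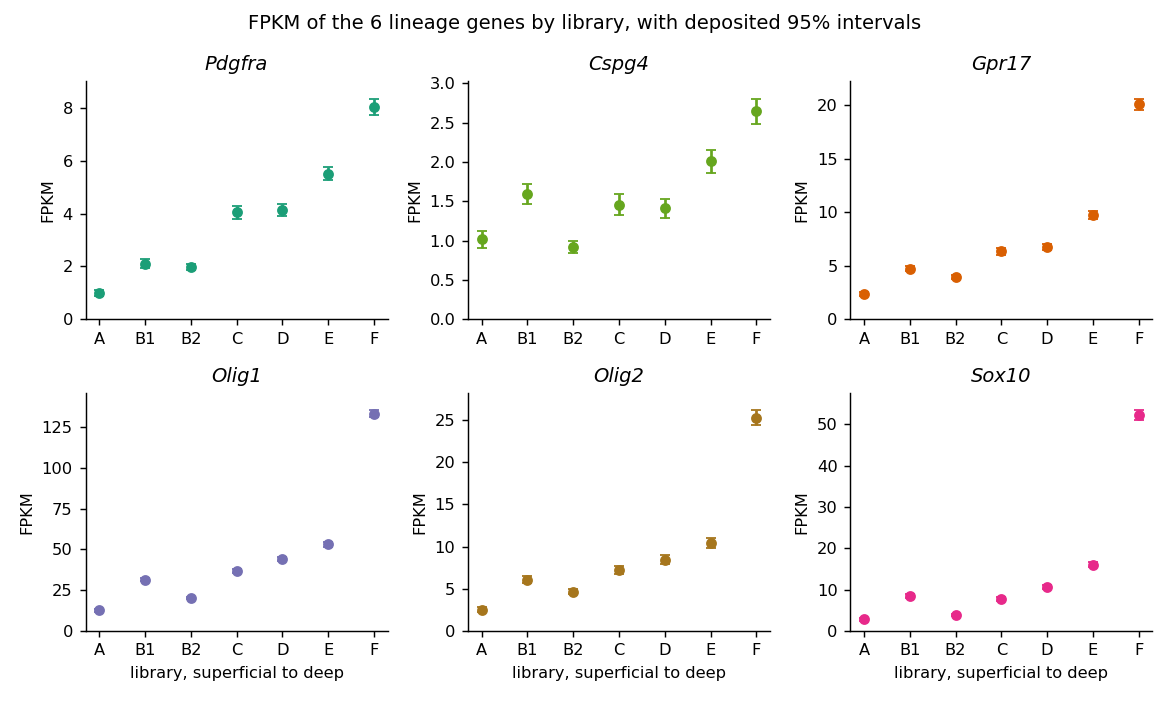
Each panel plots the FPKM of 1 gene (vertical axis from 0, scaled for each gene) in the 7 libraries from superficial A to deep F. Points are single pooled libraries and bars are the deposited 95% intervals. All 6 genes are highest in F, and B1 lies above B2 by more than the intervals for every gene except Pdgfra.

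Pdgfra encodes the receptor tyrosine kinase through which platelet-derived growth factor A keeps precursors dividing. It lies at chr5:75548361-75594218 (mm9) and has 1 transcript model of 6497 bases. Its FPKM was 1.00 in A, 2.11 and 1.98 in B1 and B2, 4.04 and 4.14 in C and D, 5.51 in E and 8.05 in F. The intervals of B1 and B2 overlapped, as did those of C and D, and each other step towards the deeper segment was larger than the intervals. F was 8.02-fold above A and 1.46-fold above E. The slope was 0.53 ± 0.066 (SE) log2 units per segment, a 1.44-fold rise per segment (limma, adjusted p = 0.00345). With median-ratio scaling the slope was 0.45 and F was 5.95-fold above A (limma, adjusted p = 0.00562). Its estimated fragments ranged from 206 in A to 3034 in F, the value for F being an upper one. Counting error was small beside the difference.

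Cspg4 encodes the proteoglycan NG2, which precursors carry on their surface and which pericytes carry as well. It lies at chr9:56712967-56746942 (mm9) and was the least abundant of the 6 genes by mean FPKM (1.58). Its FPKM was 1.02 in A, 1.59 and 0.919 in B1 and B2, 1.46 and 1.41 in C and D, 2.01 in E and 2.64 in F. The intervals of A and B2 overlapped, and so did those of B1, C and D. Only E and F stood above every other library. F was 2.60-fold above A and 1.31-fold above E. The slope of 0.24 ± 0.065 (SE) per segment passed the threshold narrowly (limma, adjusted p = 0.0398). On the median-ratio scale it was 0.16 and did not pass (limma, adjusted p = 0.150), with F 1.93-fold above A. Without any 1 of A, B2, C, D, E or F the adjusted p was between 0.0605 and 0.140 (limma). The slope was then between 0.20 and 0.25, against 0.24 with all libraries. Why the call was lost was not tested.

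Gpr17 encodes a G protein-coupled receptor found for a short time in cells between precursor and myelinating oligodendrocyte. It lies at chr18:32102651-32109290 (mm9). Its FPKM was 2.35 in A, 4.71 and 3.96 in B1 and B2, 6.34 and 6.74 in C and D, 9.78 in E and 20.1 in F. Only the intervals of C and D overlapped. F was 8.56-fold above A and 2.06-fold above E. The slope was 0.52 ± 0.061 (SE) per segment (limma, adjusted p = 0.00235), and 0.44 on the median-ratio scale (limma, adjusted p = 0.00594). Of 5195 exon bases of Gpr17, 188 (3.62%) are shared with Lims2 on the opposite strand, and the library preparation did not mark strand, so reads there cannot be told apart. Lims2 was at 3.08 to 4.41 FPKM in A to E and at 10.5 FPKM in F.

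Olig1 and Olig2 encode basic helix-loop-helix factors. OLIG2 is needed to specify the lineage, and OLIG1 acts mainly in maturation. The genes are neighbours at chr16:91270017-91272174 and chr16:91225795-91228922 (mm9). The FPKM of Olig1 was 12.5 in A, 31.5 and 19.96 in B1 and B2, 36.5 and 44.3 in C and D, 53.1 in E and 133 in F. The FPKM of Olig2 was 2.51 in A, 6.06 and 4.62 in B1 and B2, 7.20 and 8.45 in C and D, 10.4 in E and 25.3 in F. For both genes the order was A, B2, B1, C, D, E, F, with no overlap between neighbours in that order.

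Olig1 was 10.6-fold and Olig2 10.1-fold higher in F than in A, and 2.51-fold and 2.42-fold higher in F than in E. Their slopes were 0.57 ± 0.075 and 0.54 ± 0.072 (SE) per segment (limma, adjusted p = 0.0041 and 0.00459). On the median-ratio scale these were 0.49 and 0.46 (limma, adjusted p = 0.0103 and 0.0113). Per length, the ratio of Olig1 to Olig2 FPKM was between 4.32 in B2 and 5.27 in F.

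Sox10 encodes an HMG-box factor that switches on myelin genes and is expressed throughout the lineage. It lies at chr15:78985513-78994916 (mm9). Its FPKM was 2.75 in A, 8.49 and 3.84 in B1 and B2, 7.66 and 10.6 in C and D, 16.1 in E and 52.2 in F. The value in F was far above the rest, and the intervals of B1 and C overlapped. F was 19.0-fold above A and 3.25-fold above E, the largest such folds among the 6 genes. The slope was 0.72 ± 0.0999 (SE) per segment (limma, adjusted p = 0.00541), and 0.64 on the median-ratio scale (limma, adjusted p = 0.0129), where F was 14.1-fold above A.

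Shares of each gene's expression in the deepest segments ranked in the order of the fold between F and A. With B as the mean of its libraries and FPKM summed over 6 segments, E and F held 47.5% of Cspg4, 54.7% of Pdgfra, 60.2% of Gpr17, 60.3% of Olig2, 61.04% of Olig1 and 71.5% of Sox10. Segment F alone held from 27.0% (Cspg4) to 54.7% (Sox10). Each of the 6 genes had 1 Ensembl transcript model, so no isoforms could be compared.

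The replicate libraries of segment B give the only direct view of the spread between pools. The intervals of these libraries were apart for 5 of the 6 genes, and in either direction for 66.4% of all tested genes. In each of the 5 the interval of B1 lay wholly above that of B2. The share of all tested genes with B1 above B2 was not counted. B1 was 1.06-fold above B2 for Pdgfra, 1.19-fold for Gpr17, 1.31-fold for Olig2, 1.58-fold for Olig1, 1.73-fold for Cspg4 and 2.21-fold for Sox10. Litter and library cannot be told apart in this comparison. For Cspg4 this ratio exceeded that between F and E, and for Sox10 it was smaller than the ratio between F and E. The 4 genes with the larger ratios have transcript GC contents of 58.1% (Cspg4), 58.5% (Olig2), 61.1% (Olig1) and 63.6% (Sox10), against 53.4% for Gpr17 and 51.0% for Pdgfra. Among 1230 tested genes with GC of at least 58%, a limit set after the values were seen, the median ratio of B1 to B2 was 1.44, and over all 11170 genes with a value in both it was 1.01. The libraries also differed in mean insert length (239 bases in B1, 193 in B2) and in estimated fragments (49100000 in B1, 75200000 in B2). The part of GC content, insert length or depth in the difference of B1 and B2 was not tested. After a GC correction the slopes were 0.42 for Pdgfra, 0.24 for Cspg4, 0.46 for Gpr17, 0.61 for Olig1, 0.54 for Olig2 and 0.78 for Sox10, and all 6 passed the threshold (limma, adjusted p from 0.00122 to 0.0183). In that fit 698 of 10801 tested genes rose.

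Genes of successive stages were next compared as ratios within a library, which depend little on how libraries are scaled. The 15 pairs of the 6 genes were compared, with p-values adjusted over a family of 21 pairs. In 5 pairs the log2 ratio changed with depth (exact permutation test). Of these, 4 passed when adjusted over the 15 pairs, and 12 of the 15 pairs passed when the values were first corrected for GC content, both alternatives added after the values were seen. The smallest p that the 5040 orders allow is 0.000397.

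The pairs that passed all included Cspg4, so they share a gene and are not separate results about stages. Pericytes also carry the product of Cspg4, and their part in these ratios was not tested. Relative to Cspg4, the slopes were 0.28 for Gpr17, 0.30 for Olig2, 0.33 for Olig1 and 0.48 for Sox10 (exact permutation, adjusted p = 0.00595, 0.0111, 0.00625 and 0.00278). The precursor genes also parted from each other. The ratio of Pdgfra to Cspg4 was 0.988 in A, 1.32 and 2.16 in B1 and B2, 2.77 and 2.93 in C and D, 2.74 in E and 3.05 in F (slope of Cspg4 to Pdgfra -0.29, exact permutation, adjusted p = 0.0383). Without A, D, E or F this last pair did not pass (exact permutation, adjusted p from 0.0875 to 0.102), nor did it with a pseudocount of 0.01 (exact permutation, adjusted p = 0.05) or when adjusted over the 15 pairs (exact permutation, adjusted p = 0.0548). Without F, Gpr17, Olig1 and Olig2 relative to Cspg4 did not pass either (exact permutation, adjusted p = 0.0729, 0.0729 and 0.0992), which left 1 pair, Sox10 to Cspg4. The slopes of Gpr17, Olig1 and Olig2 relative to Cspg4 without F were 0.25, 0.28 and 0.25.

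No difference in slope was found between Pdgfra and Gpr17 (slope of the log2 ratio 0.00 with values from -0.11 to 0.04 when 1 library was left out, exact permutation, adjusted p = 0.968), and the slope was 0.04 after GC correction (exact permutation, adjusted p = 0.550). The ratio of Gpr17 to Pdgfra was 2.34 in A, 1.57 in C and 2.50 in F, so it was lowest in the middle layers. Olig1 and Olig2 relative to Pdgfra had slopes of 0.04 and 0.01, and relative to Gpr17 0.05 and 0.01 (exact permutation, adjusted p from 0.325 to 0.915). After GC correction these 4 slopes were 0.19, 0.12, 0.15 and 0.09, and the pairs with Olig1 passed (exact permutation, adjusted p = 0.00648, 0.0645, 0.0135 and 0.05). Olig2 relative to Olig1 had a slope of -0.03 (exact permutation, adjusted p = 0.259), and -0.06 after GC correction (exact permutation, adjusted p = 0.0188). Sox10 relative to Pdgfra, Gpr17, Olig1 and Olig2 had slopes of 0.19, 0.20, 0.15 and 0.18 (exact permutation, adjusted p = 0.259, 0.0833, 0.0653 and 0.0653). Sox10 relative to Gpr17, Olig1 and Olig2 did pass without B1 (exact permutation, adjusted p = 0.0265, 0.0389 and 0.0404), which made 8 pairs. After GC correction the slopes of Sox10 relative to Pdgfra, Gpr17, Olig1 and Olig2 were 0.36, 0.33, 0.18 and 0.24 and all passed (exact permutation, adjusted p from 0.00167 to 0.00903).

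Other genes of each stage were read from lists, in which the members above are included. The tissue was read whole, and genes of these lists may also be expressed by other cell types. The part of other cells in these values was not tested, so the median of a list is not a measure of a stage. Of the precursor list 14 of 15 genes were listed and 10 could be tested. Of these, 3 rose and none fell, with a median slope of 0.20 against 0.09 over all tested genes, of which 16.6% rose. Outside Pdgfra and Cspg4 the median was 0.14, and of 8 genes only Tnr, the extracellular matrix protein tenascin-R, rose (slope 0.36, limma, adjusted p = 0.0420), and it did not pass on the median-ratio scale (limma, adjusted p = 0.104), where Pdgfra alone of the list rose. Pdgfra had the highest slope of the list and Pcdh15, a protocadherin, the lowest (-0.07, limma, adjusted p = 0.419). Ptprz1, a receptor phosphatase with the highest mean FPKM of the list, was at 4.82 FPKM in A and at 17.9 FPKM in F (slope 0.27, limma, adjusted p = 0.0698).

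Of the committed list 13 of 14 genes were listed and 7 could be tested. Of these, 5 rose and none fell, beside 16.6% rising over all tested genes. On the median-ratio scale 4 rose, beside 587 of all 11409 tested genes. The median slope was 0.52, which is that of Gpr17, and 0.42 over the other 6 genes, of which 4 rose. Bcas1, which marks oligodendrocytes as they begin to form myelin, had both the highest slope (0.83, limma, adjusted p = 0.00102) and the highest mean. Its FPKM was 11.0 in A, 26.2 and 33.8 in B1 and B2, 54.1 and 69.8 in C and D, 107 in E and 306 in F. Rras2, a small GTPase, had the lowest slope (0.05, limma, adjusted p = 0.520).

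Of the lineage regulators 18 of 19 were listed and 12 tested, with a median slope of 0.20. On both scales 4 rose and none fell, beside 16.6% rising over all tested genes without median-ratio scaling. Outside the 3 members the median was 0.13, and of 9 genes only Sox8, which overlaps SOX10 in function, rose. Its FPKM was 3.57 in A, 5.76 and 5.10 in B1 and B2, 7.71 and 9.71 in C and D, 12.4 in E and 27.1 in F (slope 0.52, limma, adjusted p = 0.00178). Hes5, a Notch target that holds back differentiation, had the lowest slope (-0.12, limma, adjusted p = 0.270). Id2, an inhibitor of helix-loop-helix factors, had the highest mean and was at 58.9 FPKM in A and 69.5 FPKM in F (slope 0.13, limma, adjusted p = 0.129).

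All 14 myelin genes of the list were tested and all 14 rose on both scales, with a median slope of 0.87. Without median-ratio scaling 16.6% of all tested genes rose. Mobp rose most (slope 1.05, 52.5-fold from A to F) and Opalin, a membrane protein of myelinating cells, least (0.76, 18.6-fold). Mbp was the most abundant, at 172 FPKM in A and 6954 FPKM in F (slope 0.95, limma, adjusted p = 0.000726). The slopes of Pdgfra, Cspg4, Gpr17, Olig1, Olig2 and Sox10 were below that of the lowest myelin gene, although Sox10 and Opalin (0.72 and 0.76) differed by less than the SE of either. After GC correction the slope of Sox10 (0.78) lay within the range of the myelin genes (0.61 for Opalin to 0.97 for Mobp, median 0.78), and that of Olig1 was 0.61.

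**Figure D2:**
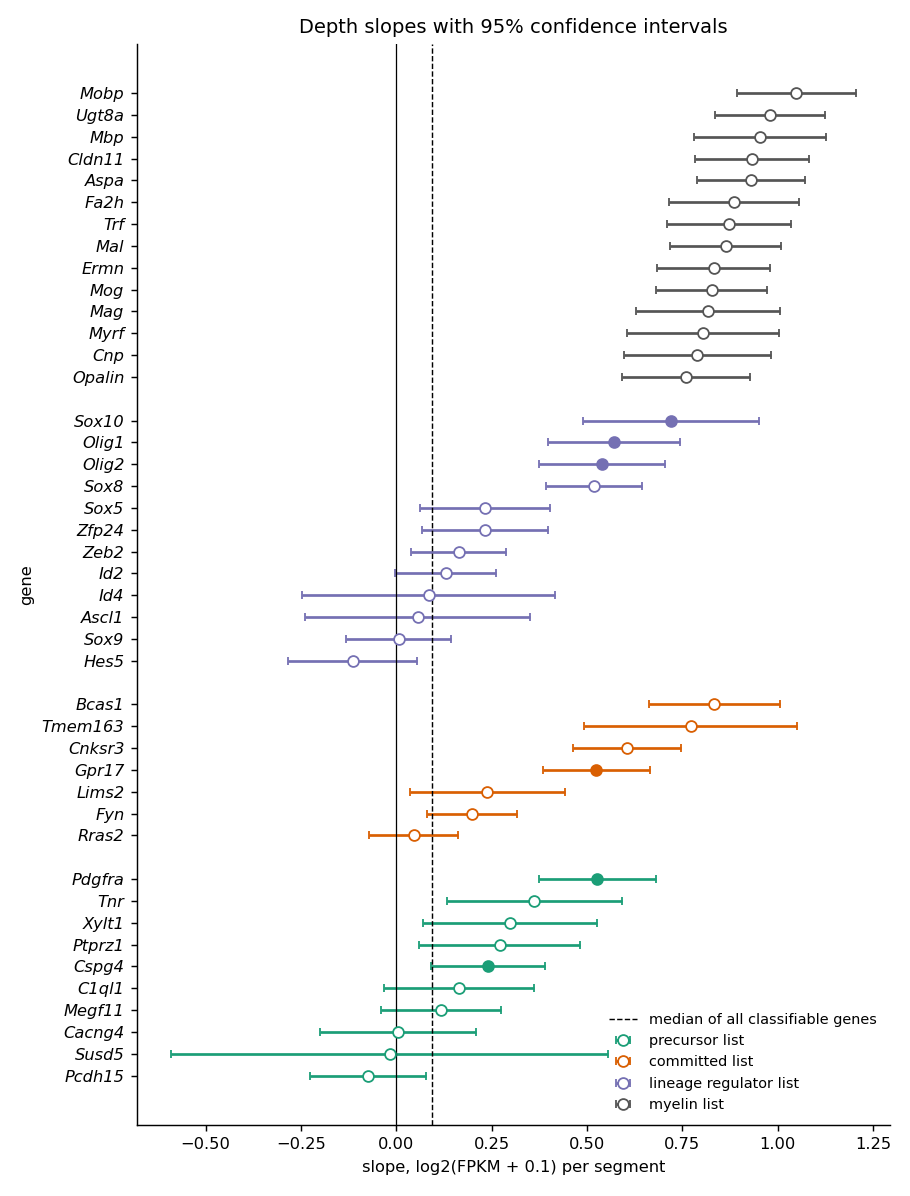
Points give the slope of log2(FPKM + 0.1) per segment over 7 libraries for each tested gene of 4 lists, with 95% confidence intervals from the fit. Filled points are the 6 members, the solid line is 0 and the dashed line the median of all tested genes (0.09). Without GC correction myelin genes lie between 0.76 and 1.05, Sox10 at 0.72 (0.78 with it, inside the myelin range of 0.61 to 0.97), and most precursor genes between -0.07 and 0.36.

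Of 5 genes of PDGF growth factors and the related receptor, 3 could be tested. Pdgfa, the main ligand of PDGFRA in the brain, was at 54.5 FPKM in A and between 19.4 and 31.5 FPKM in the other libraries, with a slope of -0.11 (limma, adjusted p = 0.400). Pdgfb, a ligand of vessel wall cells, was at 4.15 to 6.86 FPKM (slope 0.11, limma, adjusted p = 0.181). Pdgfrb, the receptor of those cells, was at 1.97 to 4.13 FPKM (slope 0.13, limma, adjusted p = 0.140). These 3 genes stayed short of the threshold on both scales. Pdgfc and Pdgfd, which were not classifiable, were at 0.675 FPKM and 0.235 FPKM in A and at 4.01 FPKM and 0.604 FPKM in F. In the fit with no filter, in which 6.76% of 24130 genes rose, Pdgfc rose (slope 0.47, limma, adjusted p = 0.00729) and Pdgfd did not pass (slope 0.21, limma, adjusted p = 0.0876).

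Pdgfra is also expressed by fibroblasts of the meninges and Cspg4 by mural cells of vessels, so markers of these cells were read in the same libraries. All 12 fibroblast markers were listed in at least 1 library, with a sum of 79.9 FPKM in A and 10.4 to 17.9 FPKM in the others. Col1a1 was at 3.52 FPKM in A and at most 0.458 FPKM elsewhere, and Col3a1 was at 0 in C. Only 1 of them, Islr, could be tested. Its slope was 0.30, and 0.22 on the median-ratio scale, and it passed on neither. All 12 mural markers were listed in at least 1 library and summed to 132 FPKM in A and 51.7 to 72.6 FPKM in the others. Of 7 tested, 2 fell and none rose, beside 2.71% falling and 16.6% rising over all tested genes. Tagln, which had the lowest slope of these 7, was at 0 in C, D, E and F, so the size of its slope depends on the pseudocount. Both lists were highest in A, where Pdgfra and Cspg4 were at 1.00 and 1.02 FPKM, and the part of these cells in the values of A was not tested.

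Summed FPKM of 8 endothelial markers ranged from 59.9 to 89.6 and of 8 astrocyte markers from 715 to 937, while 8 neuronal markers ranged from 1630 in A to 3450 in D. Among the astrocyte markers Gfap was at 34.4 FPKM in A, 4.42 to 20.2 FPKM in B1 to E and 126 FPKM in F, 6.26-fold above E, and its slope of 0.52 did not pass (limma, adjusted p = 0.228). Aqp4, the water channel of astrocytes, rose from 4.95 FPKM in A to 27.7 FPKM in F (slope 0.42, limma, adjusted p = 0.00375). Of the 8 astrocyte markers Gfap had the highest slope and Aldoc the lowest. Their median slope was 0.07, against 0.09 over all tested genes, and -0.01 on the median-ratio scale. The part of astrocytes in the values of F was not tested. The 8 microglial markers summed to between 64.1 FPKM in B2 and 117 FPKM in F, with 108 FPKM in A. None of 6 tested endothelial, 1 of 8 astrocyte, 4 of 7 microglial and none of 8 neuronal genes rose, and 1 neuronal gene fell. Over all tested genes 16.6% rose and 2.71% fell. With median-ratio scaling 1 astrocyte and 2 microglial genes rose, and 2 endothelial, 1 astrocyte and 1 neuronal gene fell. On that scale 587 of all 11409 tested genes rose and 501 fell. Myelin genes summed to 301 FPKM in A and 10976 FPKM in F, and F also had the highest sums of the precursor (89.1 FPKM, against 41.3 FPKM in A), committed (466 against 61.1 FPKM, and 160 against 50.1 FPKM without Bcas1) and regulator (440 against 163 FPKM) lists. The sums of these last 3 lists include the 6 members and are not separate from them. In the regulator sum Olig1 alone was at 133 FPKM in F and 12.5 FPKM in A, and Id2 at 69.5 and 58.9 FPKM. In the committed sum Fyn was at 64.7 FPKM in F and 25.6 FPKM in A. In the precursor sum Ptprz1 was at 17.9 FPKM in F and 4.82 FPKM in A, and Tnr at 17.3 and 4.11 FPKM. Cacng4 was at 11.2 FPKM in F and 12.2 FPKM in A, and Pdgfra at 8.05 and 1.00 FPKM. The sums thus give most weight to the abundant genes of each list. How much tissue of the white matter lay in segment F was not tested.

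**Figure D3:**
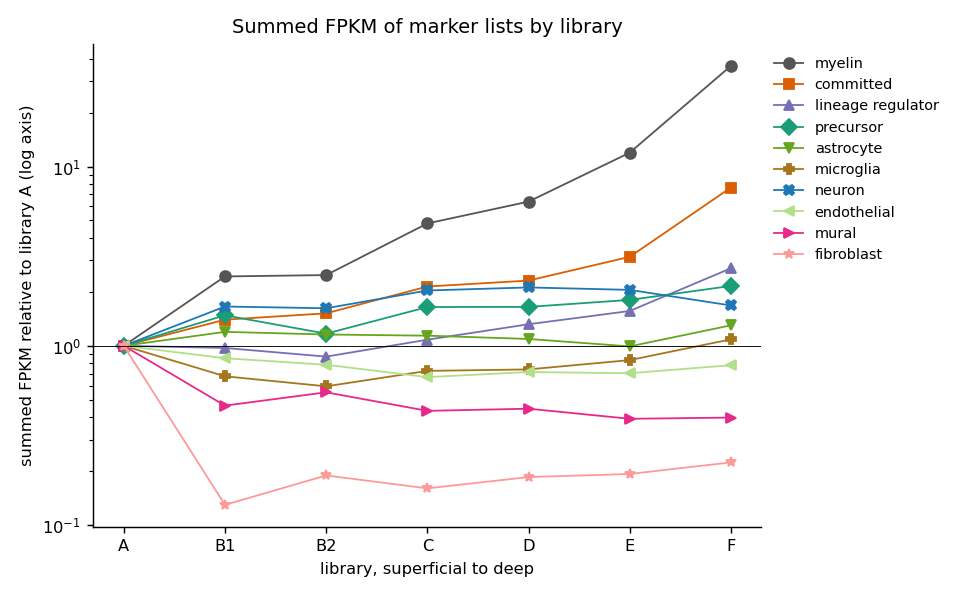
Lines join the summed FPKM of each marker list in the 7 libraries, divided by its value in library A, on a log axis. Myelin genes reach 36.4 times their level in A, committed genes 7.63 times (3.19 times without Bcas1) and precursor genes 2.16 times, while fibroblast and mural markers are highest in A. Sums give most weight to the abundant genes of a list. By itself Pdgfra reaches 8.02 times and Gpr17 8.56 times its level in A.

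Profiles most like each of the 6 genes were sought among the 10143 tested genes whose mean reached 1 FPKM, by Pearson's r of log2(FPKM + 0.1) over the same 7 libraries, as a description that carries the shared trend with depth. For Olig1 these were Olig2 (r = 0.997), Mag and Prr18, and for Olig2 they were Prr18, Olig1 and Adipor1 (r = 0.997 to 0.998). Gpr17 was most like Gpr37 (r = 0.999), Prr18 and Efhd1, and genes most like Sox10 included Sik1 (r = 0.995) and Gna12. Pdgfra was most like Strn, Tmem43 and Oxa1l (r = 0.995 each), and Cspg4 was most like Tmem119 (r = 0.985), Soga1 and Bcl2l1 (r = 0.983 each). Mag is a myelin gene of the list above, and Tmem119 is a microglial marker of the list above.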

How the data were processed

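Polyadenylated RNA of 7 libraries of mouse primary somatosensory cortex was compared, 1 library for each of segments A and C to F and 2 for segment B. According to the labels and the study's methods, the authors mapped paired reads to the mm9 genome with TopHat 1.0.13 and estimated expression of Ensembl release 57 models with Cufflinks 0.8.3. The FPKM values were deposited by the authors on a linear scale, with a lower and an upper bound of a 95% interval that reflects read counting and not differences between mice. The coverage signal deposited by the authors for each transcript was used only to estimate depth. The tables of loci assembled without an annotation were not used. Dorsal and lateral cortex (12 samples) were not analysed here.

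A gene missing from a library was set to 0. Of 24130 genes listed, 11409 were classifiable, which in the study's sense means that the widest interval of a gene was at most 50% of its mean FPKM. The slope of log2(FPKM + 0.1) on segment position was fitted with limma 3.58.1 (lmFit, eBayes with trend) and Benjamini-Hochberg adjustment over these genes, with a threshold of 0.05. A pseudocount of 0.1 understates changes of genes with a low FPKM. Slopes of log2 ratios of 2 genes were tested with an exact permutation test, 2-sided, over all 5040 orders of the libraries and adjusted over 21 pairs, of which the 15 pairs of members are reported. Results that rest on a few further genes are not reported here. Both scripts were tested on simulated data. Symbols came from GENCODE M21, matched by identifier. Genes to be named were all 6 members, the genes with the lowest slope, the highest slope and the highest mean FPKM of each lineage list, every gene of the PDGF list, and the 3 genes most alike in profile to each member. Alternatives were other pseudocounts, filters and scalings, a correction for GC content (for pairs chosen after the values were seen), a quadratic term, the mean of B1 and B2, and leaving out each library. The members and lists were chosen with earlier results of these data known. Libraries of different segments came from the same mice, so p-values measure the spread of 7 pooled libraries about a line and not the spread between mice.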

Additional observations from a re-analysis of the deposited data

How the results depend on the processing

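Pdgfra, Gpr17, Olig1, Olig2 and Sox10 had a rising slope and passed the threshold in all 17 alternatives (limma, adjusted p at most 0.0438). Cspg4 did so in 7 of 17. With the quadratic term, line and curve were tested together, and the direction was that of a straight line. A gene can be called there for curvature alone. The slope of Cspg4 was 0.24 with a mean of at least 1 FPKM and with no filter (limma, adjusted p = 0.0524 and 0.0799), 0.16 with median-ratio scaling (0.150) and 0.21 scaled without mitochondrial genes (0.105), and 0.20 to 0.27 when 1 library was left out. The number of genes with a trend, rising and falling was 1376, 1174 and 202 with intervals of at most 25% of the mean (fewer genes were tested), 1088, 587 and 501 with median-ratio scaling, 1225, 698 and 527 with GC adjustment, and 5048, 4099 and 949 with a quadratic term. Scaled without mitochondrial genes, 859 had a trend and 550 rose. With 1 library left out, 570 to 2307 genes had a trend, 487 to 1932 rose and 83 to 375 fell, fewest without E. Pairs with a trend in their ratio numbered 1 (without F) to 8 (without B1) with 1 library left out, against 5, 8 with the mean of B1 and B2 and 12 with GC adjustment. Of 195 values of pairs under alternatives, 160 kept direction and side of the threshold, 9 lost the call, 15 gained it and 11 turned direction, none of these called. The slope of the log2 ratio of Gpr17 to Pdgfra turned to 0.055 with a pseudocount of 1. It was 0.0044 with the mean of B1 and B2 and 0.036 with GC adjustment. With 1 library left out this slope ranged from -0.11 to 0.035, and that of Olig1 to Pdgfra from -0.079 to 0.085. The slope of Olig2 to Pdgfra then ranged from -0.11 to 0.049 and that of Olig2 to Gpr17 from -0.0057 to 0.035. With intervals widened 2 times, 3 members differed between B1 and B2, and the share of all tested genes at this setting was not counted. The median slope of the lineage regulators was 0.05 after GC adjustment and 0.20 before. Causes of these changes were not tested. No paired analysis was possible because only segment B was sequenced by litter, while each other segment has 1 library pooled from both litters. Segments other than B have 1 set of values, so a fold between 2 of them has no replicate check.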

Other observations

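Of the precursor, committed and regulator lists, 15 genes were not classifiable. In the fit with no filter 6 of these rose and none fell (limma), beside 6.76% of 24130 genes rising. Among the 15 genes, 11 were highest in F, 3 in A (Tcf7l2, Emid1 and Kif19a) and 1 in C (Sox6). F was highest for 29.3% of classifiable genes, and this share was not counted for genes that were not classifiable. Some genes were close between A and F, with Chd7 at 3.81 and 3.87 FPKM, Bmp4 at 2.13 and 2.29, Matn4 at 3.86 and 4.17 and Kif19a at 2.20 and 2.17. Of the genes that rose, 4 are given here, picked after their values were seen. Enpp6, an enzyme of newly forming oligodendrocytes, was at 0.453 FPKM in A, 0.581 and 0.448 in B1 and B2, 0.852 and 1.64 in C and D, 3.38 in E and 15.7 in F. Nkx6-2, a homeodomain factor of maturing oligodendrocytes, was at 1.60 FPKM in A, 6.97 FPKM in E and 24.5 FPKM in F. Nkx2-2, a factor of early differentiation, was at 0.580 FPKM in A and 5.02 FPKM in F. Vcan, a proteoglycan of precursors, was at 0.428 FPKM in A and 2.85 FPKM in F. Their slopes were 0.94, 0.70, 0.49 and 0.48 (limma, adjusted p = 0.00941, 0.0149, 0.0204 and 0.00884). Tcf7l2, a factor of the Wnt pathway, was at 5.23 FPKM in A and 2.65 FPKM in F. The 6 genes of dividing cells (Mki67, Top2a, Cdk1, Ccnb1, Birc5 and Cenpf) summed to 0.295 FPKM in A, 0.387 to 0.624 FPKM in B1 to E and 2.06 FPKM in F, of which Top2a made 0.932 FPKM, and none of them was classifiable.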
